A study of Danio rerio with 16 samples.

Results

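The lens crystallins of zebrafish embryos were examined as 1 gene family. They were taken as the gene symbols of the count table that begin with cryaa, cryab, cryba, crybb, cryg or cryn and that had at least 10 counts in total over the 16 libraries. Of 36109 gene symbols in the table, 55 had such a name and 48 reached the minimum. Cryptochromes, whose symbols also begin with cry, were not included. The 48 genes comprised 2 alpha, 7 beta A, 6 beta B, 19 gamma M2d, 6 other gamma M, 3 gamma MX, 2 gamma N and 3 gamma S crystallins. The gene just inside the minimum was crygs3 with 11 counts, and the gene just outside was crygm7 with 8. The others left out were crygs2 and crygm2b with 7 counts each, crygm1 and crygm2a with 2 each, cryaba with 1 and crygm6 with 0.

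Whole embryos of hnf4a and hnf4b double knockouts made with CRISPR/Cas9 were sequenced beside their siblings, in 4 libraries per genotype at 34 h post fertilisation (hpf) and 4 per genotype at 48 hpf. The labels give no treatment, do not say which genotypes the siblings carried, and do not say what a replicate number marks or whether replicates came from separate clutches. The p-values therefore measure the spread between these samples only. The labelled batch is the stage itself, so batch and stage cannot be told apart. In whole embryos a change in the number of lens cells and a change in RNA per lens cell also cannot be told apart. Library totals ranged from 34588058 to 43194625 counts. The transcript levels of both targeted genes overlapped between knockouts and siblings at both stages, so the labels could not be checked from them. For hnf4a the log2 fold change was -0.08 ± 0.27 at 34 hpf and -0.15 ± 0.27 at 48 hpf. For hnf4b it was -0.91 ± 0.48 at 34 hpf and -0.83 ± 0.49 at 48 hpf, and none of these passed the test (edgeR adjusted p between 0.269 and 0.897).

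Crystallins are the soluble proteins that fill the fibre cells of the eye lens and give it transparency and refractive power. The alpha crystallins are small heat shock proteins with chaperone activity, whereas the beta and gamma crystallins share a Greek key fold and serve mainly as structural proteins. The gamma M crystallins are typical of aquatic vertebrates, are rich in methionine and pack tightly in the hard fish lens. In zebrafish the primary lens fibres elongate and secondary fibres are added at about the stages sampled here.

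The gamma M2d crystallins form a local array of copies. All 48 genes were matched by symbol to RefSeq (assembly GRCz12tu), which was used for names and gene order only. There the 19 gamma M2d genes lay in 1 run, with at most 1 other protein-coding gene between neighbours. The run was preceded by crygm2e and followed by crygm2f, crygm5, crygm3, crygs4 and crygs3. A gamma MX gene, crygmxl1, lay shortly before it, between crygm2c and crygm2b. Among the beta crystallins, 4 pairs of a beta A and a beta B gene were direct neighbours: cryba1l2 with crybb1l2, cryba4 with crybb1, cryba1l1 with crybb1l1, and cryba1a with crybb1l3. Reads from near-identical gamma M2d copies could be split between copies or lost, so a value of a single copy is less certain than their sum.

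The summed level of the gamma M2d crystallins was lower in knockouts at both stages, with a ratio of the group means (knockout over sibling) of 0.667 at 34 hpf and 0.662 at 48 hpf. Levels are given as CPM, the counts scaled to library size after TMM normalization. They carry no length correction, so levels of different genes or classes are not compared. At 34 hpf the 19 genes summed to 278, 423, 389 and 719.7 CPM in the 4 knockout libraries, against 479, 660.2, 759 and 816 CPM in the 4 sibling libraries. Knockout replicate 4 stood among the siblings, and the other 3 knockout libraries lay below all of them. At 48 hpf the sum was 2559, 3121, 2123 and 2330.2 CPM in knockouts, against 3492, 4157, 3736 and 3922 CPM in siblings. All knockout libraries lay below all sibling libraries at that stage. Between libraries with the same replicate number the gamma M2d sum was lower in the knockout in 4 of 4 pairs at each stage. The ratios ran from 0.513 to 0.882 at 34 hpf and from 0.568 to 0.751 at 48 hpf. At 48 hpf this count was fixed by the lack of overlap. The alpha sum was also lower in 4 of 4 pairs at each stage. The beta B, gamma MX and gamma N sums were lower in 3 of 4 pairs at 34 hpf and in 4 of 4 at 48 hpf. The beta A sum was lower in 3 of 4 pairs at each stage. Without knockout replicate 4 the gamma M2d ratio of the means at 34 hpf was 0.535. These sums over chosen genes were not tested.

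The other classes with appreciable counts had ratios closer to 1 at 34 hpf. The summed beta A crystallins were 581 ± 148 CPM in knockouts and 598 ± 61.4 CPM in siblings at 34 hpf (SD, n = 4 each), a ratio of 0.970. At 48 hpf they were 1384 ± 175 CPM in knockouts and 1542 ± 63.9 CPM in siblings, a ratio of 0.897. For the beta B crystallins the ratio was 0.962 at 34 hpf, from 865 ± 282 CPM in knockouts and 899 ± 139.5 CPM in siblings, and 0.869 at 48 hpf, from 1944 ± 261 CPM in knockouts and 2235 ± 144 CPM in siblings. Each of these differences was smaller than the SD of the knockouts except that of the beta B sums at 48 hpf, which exceeded it slightly. The SD of the siblings was smaller, and at 48 hpf the beta A and the beta B difference both exceeded it. The gamma N ratio was 0.979 at 34 hpf and 0.865 at 48 hpf, and the gamma MX ratio was 0.899 at 34 hpf and 0.850 at 48 hpf. The alpha crystallins summed to 4.94 ± 3.09 CPM in knockouts and 6.26 ± 2.85 CPM in siblings at 34 hpf, and to 23.3 ± 6.15 CPM in knockouts and 37.5 ± 4.73 CPM in siblings at 48 hpf. Their ratio was 0.790 at 34 hpf and 0.620 at 48 hpf, where it lay further from 1 than that of the gamma M2d genes. The spread between knockout replicates at 34 hpf was wide in every one of these classes, with replicate 4 the highest knockout library in each.

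**Figure D1:**
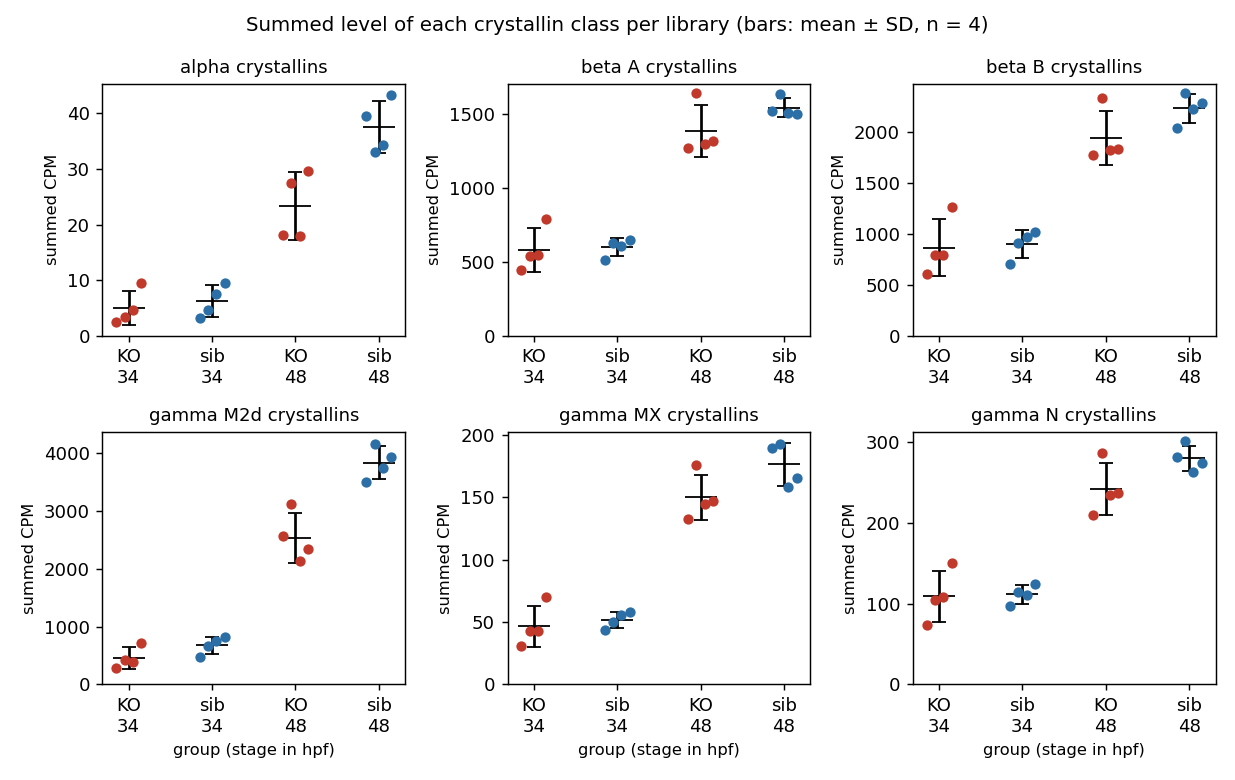
Summed CPM of 6 crystallin classes (vertical axis, linear from 0) in each library of the 4 groups (horizontal axis; KO, knockout; sib, sibling; stage in hpf). Points are libraries in replicate order, and bars give the mean ± SD of 4 libraries. Knockout replicate 4 at 34 hpf is the highest knockout point in every panel, and at 48 hpf the gamma M2d and alpha panels have no overlap between knockouts and siblings.

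The mix of crystallin counts also differed between genotypes. Gamma M2d genes took 19.3, 22.2, 20.7 and 23.9 % of all crystallin counts in the 4 knockout libraries at 34 hpf, against 26.1, 27.9, 30.2 and 30.5 % in the sibling libraries. At 48 hpf they took 42.8, 41.1, 37.6 and 39.5 % in knockouts, against 46.1, 47.7, 47.1 and 47.8 % in siblings. Knockouts lay below siblings in every library at both stages, including the knockout replicate 4 of 34 hpf whose summed level stood among the siblings. The beta B share ran the other way. It was 42.4, 41.5, 41.99 and 42.2 % in knockouts at 34 hpf, against 38.2, 38.4, 38.7 and 37.97 % in siblings, and 29.8, 30.7, 32.3 and 31.1 % in knockouts at 48 hpf, against 26.99, 27.4, 28.1 and 27.9 % in siblings. Because shares sum to the whole, a lower share of one class raises the others, and the beta B share is not a separate observation. All 48 genes together took 0.152% to 0.268% of all counts in knockouts and 0.177% to 0.257% in siblings at 34 hpf. At 48 hpf they took 0.583% to 0.779% in knockouts and 0.781% to 0.871% in siblings.

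**Figure D2:**
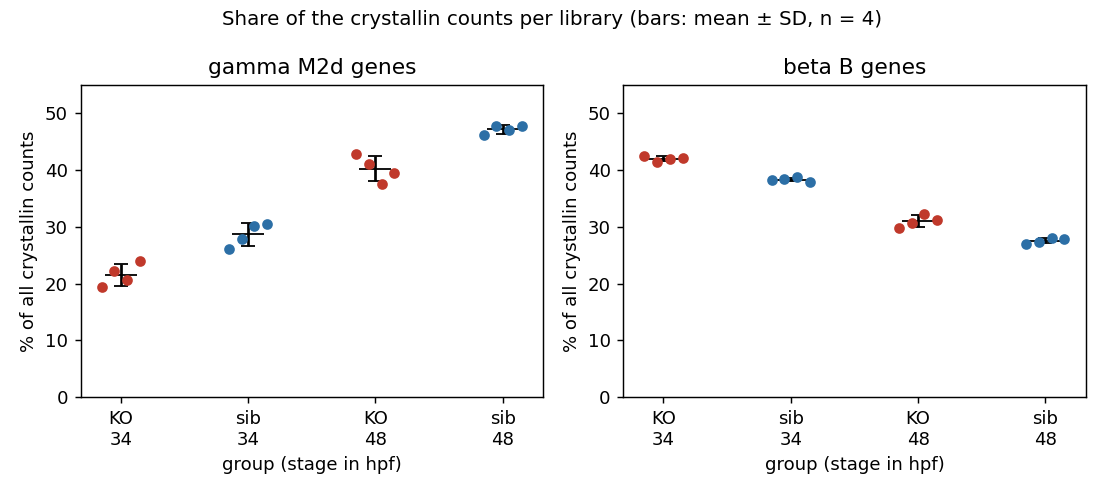
Percent of all crystallin counts taken by the gamma M2d genes (left) and by the beta B genes (right) in each library of the 4 groups (horizontal axis; KO, knockout; sib, sibling; stage in hpf). Points are libraries in replicate order, and bars give the mean ± SD of 4 libraries. Knockouts lie below siblings for gamma M2d (19.3% to 23.9% against 26.1% to 30.5% at 34 hpf) and above them for beta B.

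Gene by gene, 41 of the 48 crystallins had enough counts for the test, which ran over 24084 genes. The 7 left out were the 3 gamma S genes and crygm2c, crygm2e, crygm3 and crygm4. At 34 hpf 8 of the 41 fell in knockouts at an adjusted p below 0.05 (edgeR quasi-likelihood test, Benjamini-Hochberg), beside 5.21% of all genes tested, and 0 rose, beside 4.09% of all genes. The 8 were 6 gamma M2d genes (crygm2d4, crygm2d5, crygm2d15, crygm2d16, crygm2d18 and crygm2d20) and the gamma MX genes crygmx and crygmxl1. Higher in knockouts at an unadjusted p below 0.05 were 0 crystallins, beside 11.7% of all genes, and DESeq2 and limma-voom also called 0 higher. At 48 hpf 5 of the 41 fell by edgeR, beside 5.28% of all genes, and 0 rose, beside 4.76%. At this stage, too, 0 were higher by DESeq2, by limma-voom or at an unadjusted p below 0.05, which 11.8% of all genes reached. The 5 that fell at 48 hpf were all gamma M2d genes: crygm2d4, crygm2d11, crygm2d15, crygm2d18 and crygm2d20. The genes called at both stages by edgeR were crygm2d4, crygm2d15, crygm2d18 and crygm2d20.

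The other tools called partly different crystallins. At 34 hpf DESeq2 called 10 lower, beside 6.45% of all genes, and limma-voom 8, beside 5.42%. Both added crygm2d9 and crygm2d13 to the genes called by edgeR, and limma-voom did not call crygm2d16 (adjusted p = 0.1001) or crygmx (adjusted p = 0.0516). At 48 hpf DESeq2 called 8 lower, beside 7.01% of all genes, without crygm2d11 (adjusted p = 0.0718) and crygm2d15 (adjusted p = 0.0582). By limma-voom 12 were lower at 48 hpf, beside 6.16% of all genes, among them the 5 called by edgeR.

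Within the gamma M2d array the direction was the same throughout. At 34 hpf 19 of 19 genes had a negative fold change, 14 of them at an unadjusted p below 0.05, beside 11.6% of all genes, with a median log2 fold change of -0.65 and a range from -1.38 to -0.12. At 48 hpf 19 of 19 were again negative, 13 at an unadjusted p below 0.05, beside 12.0% of all genes, with a median of -0.62 and a range from -1.53 to -0.29. The 22 tested crystallins outside this array had medians of -0.15 at 34 hpf and -0.19 at 48 hpf, and all genes tested had medians of 0.01 and 0.00079 at these stages. Of these 22 crystallins, 16 had a negative fold change at each stage. Over all 24084 genes tested, 11625 were negative at 34 hpf and 12018 at 48 hpf. The gamma M2d copies may share reads and lie side by side, so their directions are not independent of each other.

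Single libraries weighed on the number of calls. Knockout replicate 4 at 34 hpf was the highest knockout library for 35 of the 41 crystallins and for 19 of 19 gamma M2d genes. It also had the lowest TMM factor, 0.892, against 0.960 to 1.06 in the other 15 libraries, and the highest summed skeletal muscle genes (51087 CPM). The part of either in the crystallin values was not tested. Only crygm2d16 had all knockout libraries below all siblings at 34 hpf, beside 7.23% of all genes, and 0 of 41 had the reverse, beside 6.93%. Without knockout replicate 4, 12 of 19 gamma M2d genes had all knockouts below all siblings, beside 13.3% of all genes, and 21 crystallins were called lower, beside 8.12%. The count was 3 without knockout replicate 1, 5 without knockout replicate 2 and 2 without knockout replicate 3. It was 3, 4 and 2 without sibling replicate 2, 3 or 4, while these 6 fits called 3.53% to 5.17% of all genes lower. At 48 hpf 20 of 41 had all knockout libraries below all siblings, 16 of them gamma M2d genes, beside 10.7% of all genes, and 0 of 41 had the reverse, beside 8.49%. The count of calls at 48 hpf was 8 without knockout replicate 2, 2 without sibling replicate 1, 1 without knockout replicate 1 and 0 without any other single library of that stage, while 3.38% to 5.16% of all genes were called lower in these fits.

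A fit with the replicate number as a block called more crystallins. It called 18 lower at 34 hpf, 16 of them gamma M2d genes, beside 5.89% of all genes. At 48 hpf it called 17 lower, 13 of them gamma M2d genes, beside 5.75% of all genes. Using only the 8 libraries of a stage gave 1 call at 34 hpf, beside 3.25% of all genes, and 20 at 48 hpf, beside 7.13%.

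**Figure D3:**
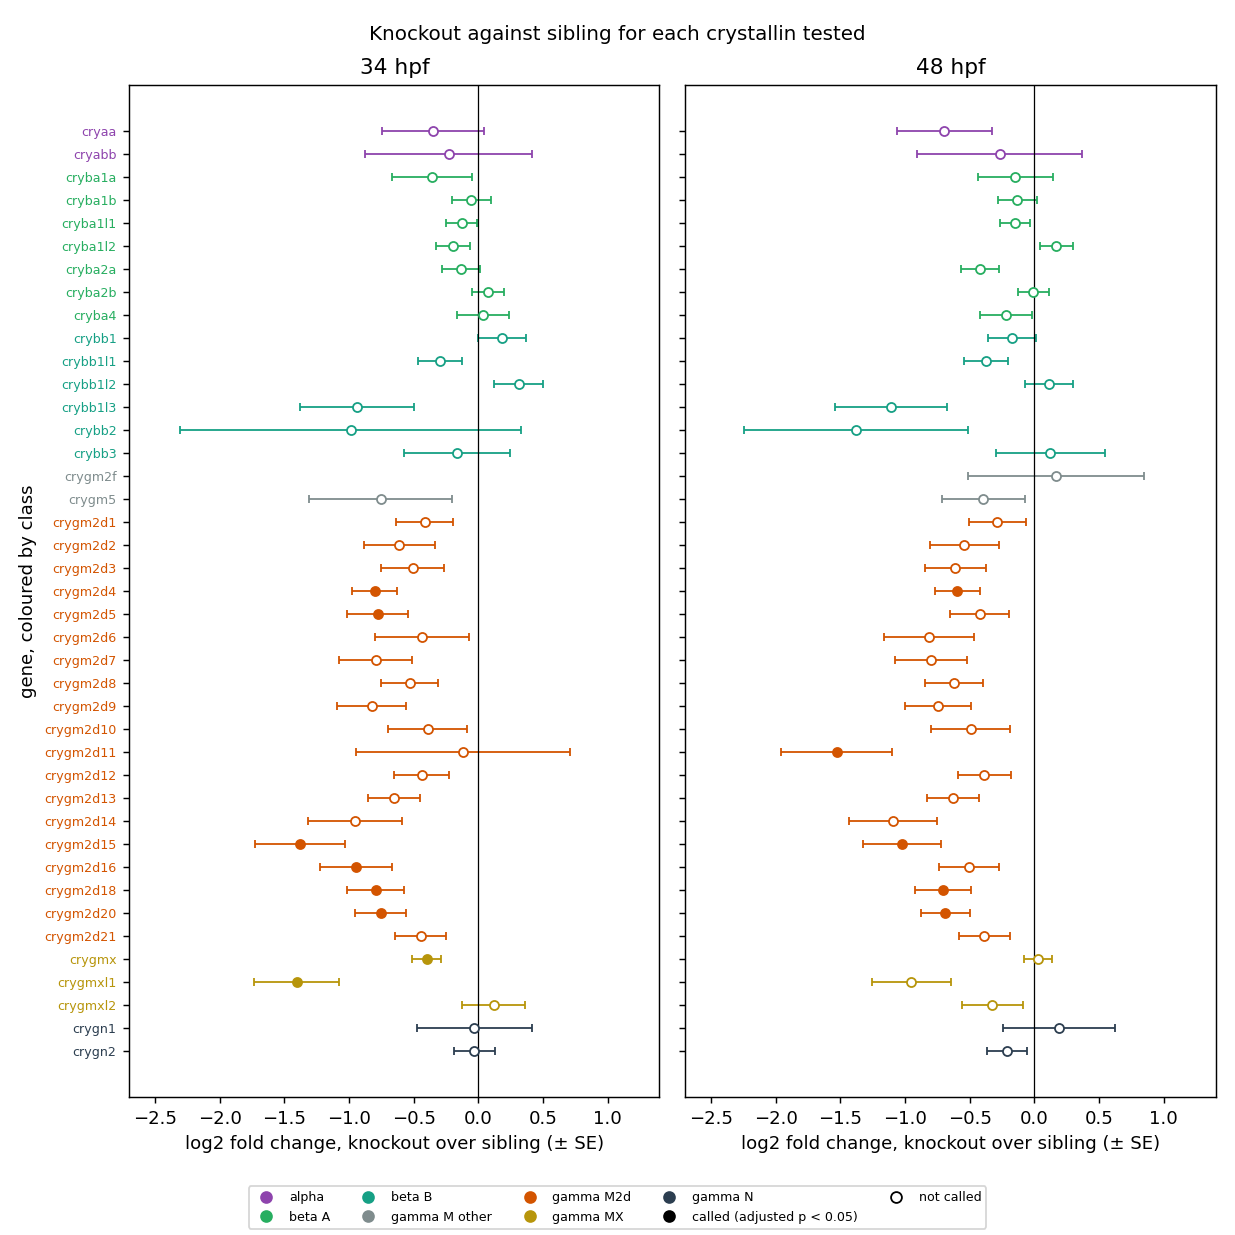
Log2 fold change, knockout over sibling, of the tested crystallins (vertical axis, ordered and coloured by class) at 34 hpf (left) and 48 hpf (right). Points are edgeR estimates, and filled points had an adjusted p below 0.05. Bars are ± 1 SE from the 1 model of all 16 libraries, 4 per group, so both panels share its estimate of spread. The 19 gamma M2d points all lie left of 0 in both panels, and crygm2f is missing at 34 hpf, where it had no counts.

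Of the gamma M2d genes, crygm2d4 had the smallest adjusted p at 34 hpf. It had 20.3, 26.98, 22.8 and 35.9 CPM in knockouts, against 34.1, 42.9, 51.5 and 56.3 CPM in siblings. By 48 hpf the level was 182, 200.2, 147 and 163 CPM in knockouts, against 214, 288, 265 and 280.3 CPM in siblings. Only knockout replicate 4 at 34 hpf reached the sibling range, and the groups did not overlap at 48 hpf. Its log2 fold change came to -0.80 ± 0.18 at 34 hpf (adjusted p = 0.00762) and -0.60 ± 0.17 at 48 hpf (adjusted p = 0.0357). Its call at 34 hpf was kept whichever library was left out, with an adjusted p of at most 0.0320. The call at 48 hpf was lost in 5 of 8 such fits, with an adjusted p of up to 0.1095.

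The fold change furthest from 0 in the array at 34 hpf was that of crygm2d15, with 1.45, 1.31, 1.71 and 5.28 CPM in knockouts, against 3.83, 5.46, 7.20 and 8.65 CPM in siblings. Again replicate 4 alone stood within the sibling range. At 48 hpf it had 55.7, 69.6, 43.1 and 49.7 CPM in knockouts, against 109, 122, 105 and 108 CPM in siblings, with a wide gap between the groups. In the test the log2 fold change was -1.38 ± 0.35 at 34 hpf (adjusted p = 0.0188) and -1.03 ± 0.30 at 48 hpf (adjusted p = 0.0405). The gene next to it in the array, crygm2d18, had 14.96, 20.2, 20.2 and 35.1 CPM in knockouts, against 26.2, 39.2, 41.5 and 49.8 CPM in siblings, at 34 hpf. Its levels at 48 hpf were 135, 170.3, 113 and 121 CPM in knockouts, against 198, 237, 219.6 and 224 CPM in siblings. Its groups overlapped through replicate 4 at 34 hpf and not at 48 hpf, and its log2 fold change was -0.79 ± 0.22 (adjusted p = 0.0306) and -0.70 ± 0.22 (adjusted p = 0.0479) at these stages.

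For crygm2d20 the values at 34 hpf were 13.4, 22.9, 16.02 and 30.1 CPM in knockouts, against 27.1, 37.96, 34.3 and 39.8 CPM in siblings. At 48 hpf they were 146, 176, 125 and 139 CPM in knockouts, against 216, 264, 232 and 230.4 CPM in siblings. The overlap was again limited to replicate 4 at 34 hpf. The fitted log2 fold change was -0.76 ± 0.20 at 34 hpf (adjusted p = 0.0209) and -0.69 ± 0.19 at 48 hpf (adjusted p = 0.0288).

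By edgeR crygm2d5 and crygm2d16 were called at 34 hpf and not at 48 hpf, whereas limma-voom called crygm2d16 at 48 hpf (adjusted p = 0.0240) and not at 34 hpf. At 34 hpf crygm2d16 had 0.688, 0.880, 1.58 and 2.27 CPM in knockouts, against 2.27, 2.28, 3.32 and 2.53 CPM in siblings, and the highest knockout lay below the lowest sibling by less than the rounding shows. At 48 hpf it had 31.6, 35.5, 23.1 and 22.02 CPM in knockouts, against 42.5, 42.2, 36.5 and 38.1 CPM in siblings, and these groups also did not overlap. The log2 fold change was -0.94 ± 0.28 at 34 hpf (adjusted p = 0.0419) and -0.51 ± 0.23 at 48 hpf (adjusted p = 0.187). For crygm2d5 there were 9.63, 10.6, 4.99 and 15.5 CPM in knockouts, against 13.9, 17.6, 17.00 and 21.2 CPM in siblings, at 34 hpf. Its levels at 48 hpf were 74.5, 97.6, 72.1 and 72.3 CPM in knockouts, against 86.2, 122, 116 and 100.4 CPM in siblings. The groups overlapped at both stages, and the log2 fold change was -0.78 ± 0.24 at 34 hpf (adjusted p = 0.047) and -0.42 ± 0.23 at 48 hpf (adjusted p = 0.273). Neither gene's effect was shown to differ between the stages (adjusted p of the difference 0.931 for crygm2d5 and 0.914 for crygm2d16).

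By edgeR crygm2d11 was called at 48 hpf and not at 34 hpf. At 34 hpf it was near the limit of detection, with 0.0711, 0, 0.0501 and 0.273 CPM in knockouts and 0.164, 0, 0 and 0.246 CPM in siblings. At 48 hpf it had 3.06, 4.19, 3.05 and 4.26 CPM in knockouts, against 13.3, 9.75, 8.89 and 10.1 CPM in siblings, and the lowest sibling lay well above the highest knockout. The log2 fold change at 48 hpf was -1.53 ± 0.43 (adjusted p = 0.0298), and the difference from 34 hpf did not pass the test at -1.41 ± 0.97 (adjusted p = 0.863). At 34 hpf a difference was not detectable at this depth.

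The gamma M2d genes with the most counts, crygm2d8 and crygm2d13, had negative fold changes that did not pass the threshold in edgeR. At 34 hpf crygm2d8 had 57.4, 70.5, 70.6 and 139 CPM in knockouts and 85.9, 117, 135 and 151 CPM in siblings. The levels at 48 hpf were 383, 455, 329 and 329 CPM in knockouts and 510.5, 638, 576 and 577 CPM in siblings, with no overlap. Its log2 fold change was -0.53 ± 0.22 at 34 hpf, with an adjusted p of 0.156, and -0.62 ± 0.22 at 48 hpf, with an adjusted p of 0.0919. With the replicate block the adjusted p was 0.0107 at 34 hpf and 0.00675 at 48 hpf, and DESeq2 called it at 48 hpf (adjusted p = 0.0347). For crygm2d13 the values were 21.6, 34.3, 32.7 and 50.3 CPM in knockouts and 37.8, 53.5, 63.8 and 62.8 CPM in siblings at 34 hpf. At 48 hpf they were 196, 249, 173 and 179.9 CPM in knockouts and 291, 325, 319 and 302 CPM in siblings, again with no overlap. Its adjusted p came close to the threshold at both stages, with log2 fold changes of -0.65 ± 0.20 at 34 hpf, with an adjusted p of 0.0537, and -0.63 ± 0.20 at 48 hpf, with an adjusted p of 0.0549. With the block its adjusted p was 0.00268 at 34 hpf and 0.00302 at 48 hpf. It was called at both stages by DESeq2 (adjusted p = 0.0153 and 0.0149) and by limma-voom (0.0437 and 0.0305).

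**Figure D4:**
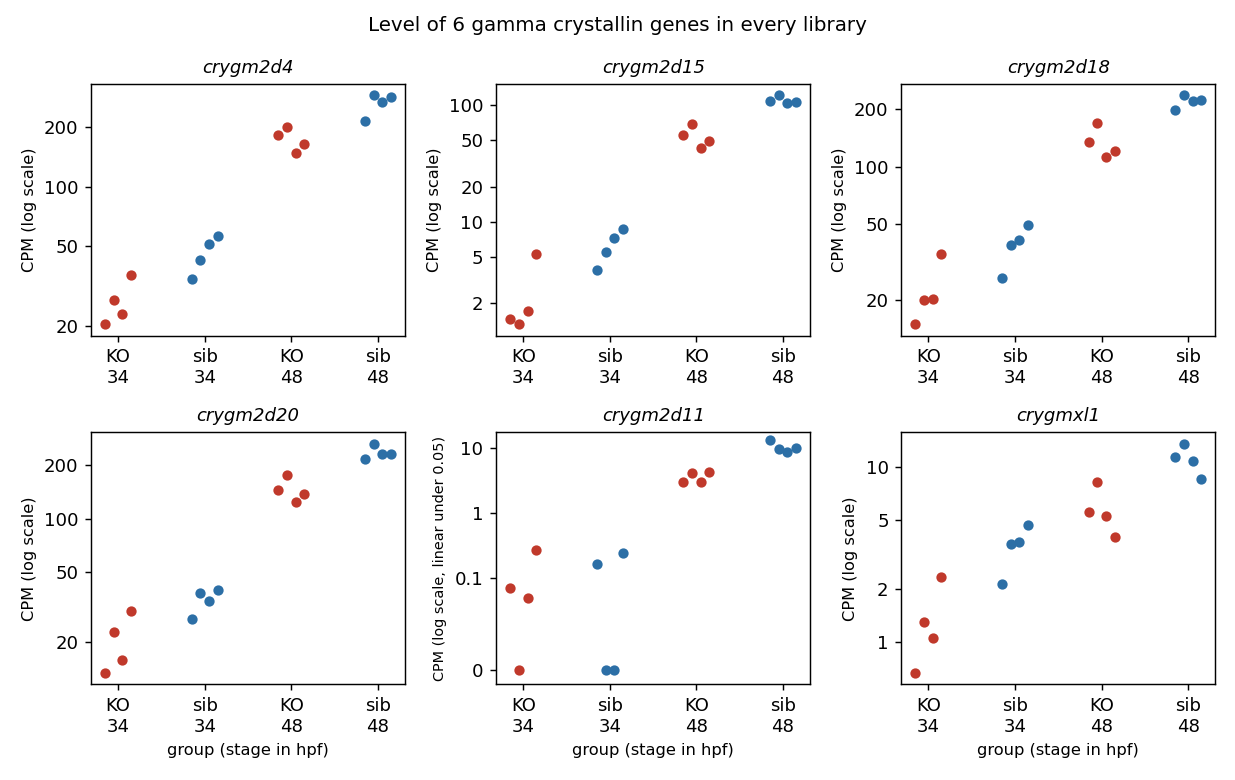
CPM of 5 gamma M2d genes and of the gamma MX gene crygmxl1 in each library (vertical axis, log scale; for crygm2d11 linear under 0.05) of the 4 groups (horizontal axis; KO, knockout; sib, sibling; stage in hpf). Each point is 1 library, in replicate order. At 48 hpf all knockout points lie below all sibling points in the 6 panels, and at 34 hpf knockout replicate 4 is the highest knockout point.

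The 3 gamma MX genes, a small branch related to gamma M, gave unlike values. At 34 hpf crygmxl1, which lies beside the gamma M genes, had 0.664, 1.31, 1.05 and 2.35 CPM in knockouts, against 2.13, 3.61, 3.73 and 4.69 CPM in siblings. At 48 hpf it had 5.50, 8.17, 5.27 and 3.98 CPM in knockouts, against 11.5, 13.6, 10.8 and 8.51 CPM in siblings. Only replicate 4 at 34 hpf stood within the sibling range. Its log2 fold change came to -1.41 ± 0.33 at 34 hpf (adjusted p = 0.012). That call was kept at an adjusted p of at most 0.0456 whichever library was left out. It was lost with only the 34 hpf libraries, where the 1 crystallin called was a gamma M2d gene. At 48 hpf the log2 fold change was -0.95 ± 0.30 (adjusted p = 0.0566, against 0.00189 with the replicate block, 0.0162 by DESeq2 and 0.00931 by limma-voom).

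The other gamma MX genes are direct neighbours elsewhere in the genome. At 34 hpf crygmx had 15.3, 17.4, 15.1 and 18.4 CPM in knockouts, against 16.8, 22.9, 24.3 and 23.4 CPM in siblings, where the lowest sibling stood among the knockouts. Its values at 48 hpf were 52.3, 64.4, 55.9 and 53.5 CPM in knockouts and 57.6, 55.95, 51.6 and 56.2 CPM in siblings, with full overlap. In the test the log2 fold change was -0.40 ± 0.11 at 34 hpf (adjusted p = 0.0301) and 0.03 ± 0.11 at 48 hpf (adjusted p = 0.908). Its difference between the stages, 0.43 ± 0.15, had the smallest p of all crystallins and did not pass the adjustment (adjusted p = 0.45). For crygmxl2 the values were 14.7, 23.97, 26.9 and 49.1 CPM in knockouts and 24.6, 23.4, 27.96 and 29.7 CPM in siblings at 34 hpf, and 74.9, 103, 83.7 and 89.9 CPM in knockouts and 120.3, 123, 95.6 and 101 CPM in siblings at 48 hpf. Its log2 fold change was 0.12 ± 0.24 at 34 hpf and -0.33 ± 0.24 at 48 hpf, and neither passed the test (adjusted p = 0.834 and 0.45).

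Outside the gamma M2d array most other gamma M genes were close to 0 counts. The exception was crygm5, with 0.0711, 0.199, 0.0501 and 0 CPM in knockouts and 0.191, 0.109, 0.117 and 0.123 CPM in siblings at 34 hpf, and 2.76, 4.39, 2.92 and 3.67 CPM in knockouts and 3.99, 4.53, 3.83 and 5.71 CPM in siblings at 48 hpf. Its genotype difference did not pass the test at either stage (log2 fold change -0.76 ± 0.55, adjusted p = 0.457, and -0.39 ± 0.32, adjusted p = 0.51). At 34 hpf crygm2f had 0 counts in all 8 libraries. It reached 0.116, 0.647, 0.471 and 0.117 CPM in knockouts and 0.285, 0.442, 0.155 and 0.323 CPM in siblings at 48 hpf, and the difference did not pass the test (0.16 ± 0.68, adjusted p = 0.919). The untested crygm2c, crygm2e, crygm3 and crygm4 stayed at or below 0.219 CPM in every library.

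Among the alpha crystallins, cryaa was the only one with more than a trace of counts. It had 2.04, 2.90, 4.11 and 9.35 CPM in knockouts and 2.79, 4.18, 7.35 and 9.09 CPM in siblings at 34 hpf, with overlapping groups. The values at 48 hpf were 17.8, 26.8, 17.4 and 29.6 CPM in knockouts, against 38.98, 32.7, 33.8 and 42.9 CPM in siblings. Although all knockouts lay below all siblings at 48 hpf, the log2 fold change of -0.70 ± 0.37 did not pass the test (adjusted p = 0.275, against 0.0107 with the replicate block and 0.0298 with only the 48 hpf libraries), nor did -0.35 ± 0.40 at 34 hpf (adjusted p = 0.661). The other alpha crystallin, cryabb, had 0.474, 0.398, 0.451 and 0.0547 CPM in knockouts and 0.410, 0.543, 0.175 and 0.491 CPM in siblings at 34 hpf, and 0.255, 0.719, 0.539 and 0.0468 CPM in knockouts and 0.570, 0.414, 0.517 and 0.377 CPM in siblings at 48 hpf. Its groups overlapped at both stages, and the adjusted p was 0.883 at 34 hpf and 0.854 at 48 hpf.

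By edgeR none of the 7 beta A genes was called in knockouts against siblings at 34 or 48 hpf. At an unadjusted p below 0.05 the count was 0 at 34 hpf and 1 at 48 hpf, where 12.0% of all genes were lower. The 1 gene was cryba2a, which was lower (log2 fold change -0.42 ± 0.14, adjusted p = 0.0752, and 0.0168 with the replicate block). DESeq2 called cryba2a lower (adjusted p = 0.0362), as did edgeR with only the 48 hpf libraries (0.0249) or without knockout replicate 2 (0.0271), while limma-voom gave 0.0507. The gene cryba1b had 97.7, 124, 131 and 196 CPM in knockouts and 121, 149, 146 and 154 CPM in siblings at 34 hpf, and 287, 364, 311 and 311 CPM in knockouts and 365, 364, 330.3 and 336 CPM in siblings at 48 hpf. The gene cryba1l1 had 97.2, 123, 127 and 159 CPM in knockouts and 123, 146, 135 and 149.8 CPM in siblings at 34 hpf, and 310.2, 362, 305 and 313 CPM in knockouts and 344, 384, 352 and 351 CPM in siblings at 48 hpf. The knockouts overlapped the siblings for both genes at both stages, with log2 fold changes between -0.15 and -0.05. In cryba1l2 the levels were 20.2, 22.9, 20.4 and 26.8 CPM in knockouts and 19.3, 29.7, 25.1 and 29.5 CPM in siblings at 34 hpf, and 24.8, 31.1, 26.8 and 25.4 CPM in knockouts and 23.7, 25.5, 23.4 and 23.5 CPM in siblings at 48 hpf. Its log2 fold change was -0.20 ± 0.13 at 34 hpf and 0.17 ± 0.13 at 48 hpf, with a difference of 0.37 ± 0.18 that did not pass the test (adjusted p = 0.712).

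None of the 6 beta B genes was called by edgeR, DESeq2 or limma-voom. At an unadjusted p below 0.05 the count lower in knockouts was 1 at 34 hpf and 2 at 48 hpf, beside 11.6% and 12.0% of all genes. The gene crybb1l1 had 319, 439, 417 and 604 CPM in knockouts and 403, 542, 610.2 and 631 CPM in siblings at 34 hpf, and 946, 1199, 942 and 903 CPM in knockouts and 1111, 1408, 1321 and 1333 CPM in siblings at 48 hpf. The fold change of crybb1l1, on the log2 scale, was -0.30 ± 0.17 at 34 hpf, with an adjusted p of 0.31, and -0.37 ± 0.17 at 48 hpf, with an adjusted p of 0.184 (0.0264 with the replicate block). By contrast, the values of crybb1l2 were positive. It had 185, 216, 219.9 and 421 CPM in knockouts and 184, 217, 214 and 225 CPM in siblings at 34 hpf, and 559, 751, 574 and 630.0 CPM in knockouts and 555, 609, 567 and 596 CPM in siblings at 48 hpf. The fold change of crybb1l2, on the log2 scale, was 0.31 ± 0.19 (adjusted p = 0.349) at 34 hpf with replicate 4 far above the other libraries, and 0.11 ± 0.19 (adjusted p = 0.784) at 48 hpf. The gene with an unadjusted p below 0.05 at both stages was crybb1l3, with log2 fold changes of -0.94 ± 0.44 (adjusted p = 0.213) and -1.11 ± 0.43 (adjusted p = 0.121). Without knockout replicate 4 at 34 hpf, edgeR called crybb1l1 (-0.48 ± 0.15, adjusted p = 0.0434) and crybb1l3 (-1.67 ± 0.38, adjusted p = 0.00832) lower at that stage. With only the 48 hpf libraries it called crybb1l1 (adjusted p = 0.0402) and crybb1l3 (adjusted p = 0.0157) lower at 48 hpf.

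The gamma N crystallins are an early branch related to both the beta and gamma families. The level of crygn2 was 73.2, 103, 108 and 148 CPM in knockouts and 96.1, 112, 109 and 124 CPM in siblings at 34 hpf, and 208, 284, 234 and 234 CPM in knockouts and 279.6, 299, 261 and 272 CPM in siblings at 48 hpf. The groups overlapped at both stages, with log2 fold changes of -0.03 ± 0.16 (adjusted p = 0.94) and -0.21 ± 0.16 (adjusted p = 0.453). For crygn1 the levels were 0.664, 1.19, 0.702 and 2.02 CPM in knockouts and 0.383, 1.74, 1.57 and 0.982 CPM in siblings at 34 hpf, and 1.49, 2.80, 1.12 and 2.01 CPM in knockouts and 1.09, 1.60, 1.96 and 1.83 CPM in siblings at 48 hpf, likewise with overlap.

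The gamma S crystallins, which mammals express in secondary fibres of the lens, had too few counts for a test. The level of crygs1 was 0.190, 0.114, 0.251 and 0.219 CPM in knockouts and 0, 0.109, 0.292 and 0.295 CPM in siblings at 34 hpf, and 0, 0.0959, 0 and 0.187 CPM in knockouts and 0.156, 0.276, 0.103 and 0.108 CPM in siblings at 48 hpf. For crygs4 the knockout libraries held 8 counts in all at 34 hpf, against 0 in siblings, and 15 counts at 48 hpf, against 1 in siblings. Its level was 0.0949, 0.0568, 0 and 0.0547 CPM in knockouts at 34 hpf and 0, 0.192, 0.0673 and 0.0936 CPM at 48 hpf, against at most 0.0259 CPM in any sibling library.

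No difference of a crystallin's knockout effect between 48 and 34 hpf passed the test. Of the 41, 0 had a larger and 0 a smaller fold change at 48 hpf at an adjusted p below 0.05 (edgeR), beside 0.0872% and 0.116% of all genes. At an unadjusted p below 0.05 the count was 1, crygmx, whose difference was positive. A positive difference at an unadjusted p below 0.05 was found for 827 of the 24084 genes tested. DESeq2 and limma-voom also called 0. The median difference was 0.06 on the log2 scale over the gamma M2d genes, with standard errors from 0.24 to 0.97.

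Most crystallins rose between the stages. In knockouts 35 of 41 were higher at 48 than at 34 hpf, beside 15.5% of all genes, and 0 were lower, beside 12.1%. In siblings 36 of 41 were higher, beside 18.3% of all genes, and 0 were lower, beside 15.7%. Of the 41, crybb2, crygm2d11, crygm2f and crygm5 had enough counts for the test only through 48 hpf libraries. The filter therefore favoured a rise in them, and their rise is no evidence of its own. The median log2 fold change was 2.15 in knockouts and 2.24 in siblings. At an unadjusted p below 0.05, 0 crystallins were lower in either genotype. All crystallins together summed to 6279.7 ± 888 CPM at 48 hpf and 2059 ± 669 CPM at 34 hpf in knockouts, a ratio of 3.05. In siblings the sum was 8103 ± 481 CPM at 48 hpf and 2346 ± 364 CPM at 34 hpf, a ratio of 3.45.

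The median rise was larger over the gamma M2d genes than over the beta genes in both genotypes, a difference that was not tested. In knockouts 19 of 19 gamma M2d genes were higher at 48 hpf, with a median log2 fold change of 2.71, against 1.22 over the 7 beta A and 1.08 over the 6 beta B genes. In siblings these medians were 2.51, 1.37 and 1.30, again with 19 of 19 gamma M2d genes higher. These counts and medians include crygm2d11 and crybb2, which entered the test only through 48 hpf libraries. The gamma M2d sum was 5.60 times as high at 48 as at 34 hpf in knockouts and 5.64 times in siblings. Of the beta A genes 6 of 7 were higher in each genotype, and all 3 gamma MX genes were higher in each.

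Some gamma M genes had few or no counts at 34 hpf and many more at 48 hpf. The genes crygm2d11, crygm5 and crygm2f had enough counts for the test only through 48 hpf libraries. Their rise is therefore described here without a test result. For crygm2d11 the log2 fold change, 48 over 34 hpf, was 5.17 ± 0.60 in knockouts and 6.58 ± 0.60 in siblings. For crygm5 it was 5.39 ± 0.45 in knockouts and 5.03 ± 0.42 in siblings. The gene crygm2f had 58 counts over the 4 knockout libraries at 48 hpf and 45 over the sibling libraries, against 0 in each at 34 hpf. Set against a floor of 3 counts over a group, it was at least 17.3-fold higher at 48 hpf in knockouts and at least 14.8-fold higher in siblings. Low counts were mostly even, so a count may not stand for 1 fragment. With counts divided by 2 and rounded up and the same floor, the bounds were 9.24-fold in knockouts and 7.56-fold in siblings. Within the array crygm2d15 and crygm2d16 rose by 4.49 and 4.38 on the log2 scale in knockouts and by 4.14 and 3.94 in siblings. The chaperone gene cryaa rose by 2.32 ± 0.40 in knockouts (adjusted p = 0.000303) and by 2.66 ± 0.40 in siblings (adjusted p = 5.27e-05).

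The crystallins that were not called between the stages were nearly the same ones in both genotypes. They were cryabb, cryba1l2, crybb1l3, crybb3 and crygn1 in both, and also crybb2 in knockouts. The level of crybb2 was 0.186, 0.336, 0.157 and 0.328 CPM at 48 hpf and 0, 0, 0.1003 and 0 CPM at 34 hpf in knockouts, and 1.81, 0.497, 0.258 and 0.0539 CPM at 48 hpf and 0, 0.0543, 0.117 and 0.0491 CPM at 34 hpf in siblings. Its call in siblings was lost without sibling replicate 1 at 48 hpf (log2 fold change 3.52 ± 1.02, adjusted p = 0.0128; without it 2.28 ± 0.99, adjusted p = 0.0998). In knockouts crybb2 was called without knockout replicate 3 at 34 hpf (6.31 ± 1.74, adjusted p = 0.0167, against 3.13 and 0.0502 with all libraries). That library held the only crybb2 counts of its group. The fit without it compares with 0 counts, so its fold change is not a measured size. As crybb2 entered the test only through 48 hpf libraries, its calls are no evidence of a rise. The gene crybb1l3 was called in knockouts without knockout replicate 4 at 34 hpf (1.25 ± 0.38, adjusted p = 0.0225, against 0.52 and 0.425 with all libraries). For crybb3 the estimates were negative, -0.55 ± 0.41 in knockouts (adjusted p = 0.357) and -0.84 ± 0.42 in siblings (adjusted p = 0.137). The neighbours cryba1l2 and crybb1l2 had unlike values. The log2 fold change of cryba1l2 was 0.26 ± 0.13 in knockouts and -0.11 ± 0.13 in siblings (adjusted p = 0.149 and 0.575), and that of crybb1l2 was 1.27 ± 0.19 and 1.47 ± 0.19 (adjusted p = 8.32e-05 and 1.2e-05).

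**Figure D5:**
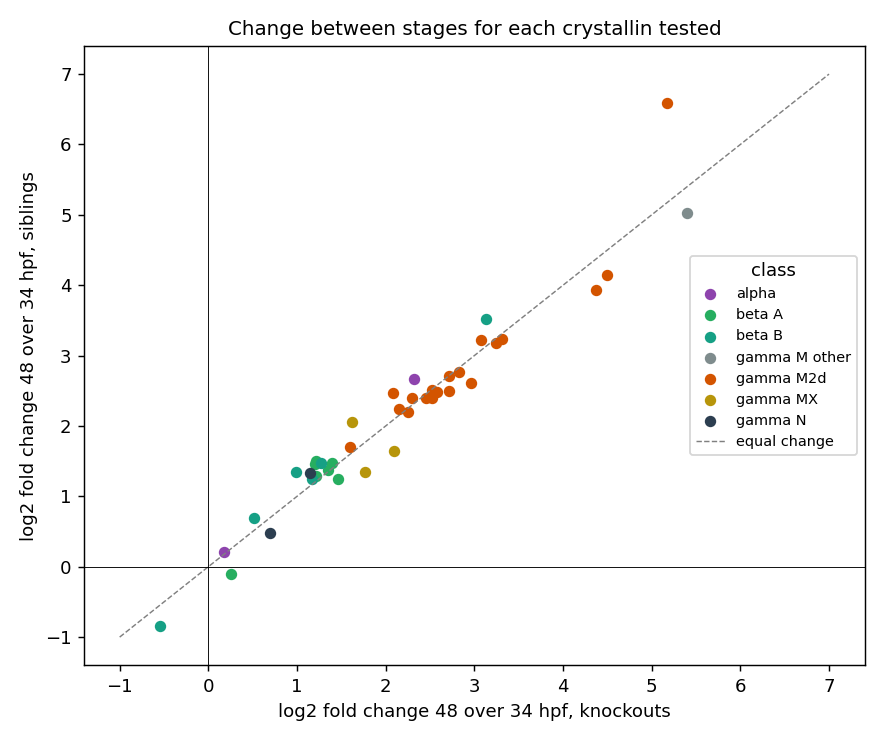
Log2 fold change, 48 over 34 hpf, of the tested crystallins in knockouts (horizontal axis) and in siblings (vertical axis), coloured by class, with a dashed line of equal change; crygm2f, with 0 counts at 34 hpf, is left out. Each point is 1 gene, estimated from 4 libraries per group. The gamma M2d points lie between 1.60 and 5.17 in knockouts and between 1.70 and 6.58 in siblings, above most beta points. The highest of them is crygm2d11, which, like crygm5 and crybb2, entered the test only through 48 hpf libraries.

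Few other lens genes were called by edgeR. The libraries are whole embryos, so the tissue behind a change in any gene listed here or below cannot be told. Of 11 tested genes of lens fibre membranes and junctions, cx23, a connexin, fell in knockouts at 34 hpf (log2 fold change -0.58 ± 0.13, adjusted p = 0.0102), and 0 of 11 rose, beside 5.21% of all genes lower and 4.09% higher. With the replicate block 4 of 11 fell at 34 hpf and 1 of 11 fell at 48 hpf, beside 5.89% and 5.75% of all genes. At 48 hpf 0 of 11 changed by edgeR, DESeq2 and limma-voom. At an unadjusted p below 0.05, 5 of 11 were lower at 34 hpf, beside 11.6% of all genes, and 2 of 11 at 48 hpf, beside 12.0%. DESeq2 and limma-voom each called 2 of 11 lower at 34 hpf, beside 6.45% and 5.42% of all genes, and 0 higher. The medians were -0.28 at 34 hpf and -0.12 at 48 hpf. Besides cx23, the block called mipb (-0.46 ± 0.11, adjusted p = 0.0190), gja8a (-0.54 ± 0.15, 0.0448) and gja8b (-0.51 ± 0.14, 0.0366) lower at 34 hpf. The aquaporin mipa had 105 ± 16.2 CPM in knockouts and 126 ± 19.3 CPM in siblings at 34 hpf (SD, n = 4 each). At 48 hpf mipa had 115 ± 19.3 CPM in knockouts and 129 ± 4.45 CPM in siblings. This fibre marker was thus present in every group, which gives no measure of the number of fibre cells. Of 9 genes for the lens cytoskeleton and organelle loss, epha2a, an ephrin receptor of lens cells, rose at both stages (0.35 ± 0.09, adjusted p = 0.0159, and 0.81 ± 0.09, adjusted p = 1.49e-05) and vim, the intermediate filament vimentin, rose at 34 hpf (0.43 ± 0.12, adjusted p = 0.0353). The heat shock factor hsf4, which is required for lens fibre maturation, fell at 48 hpf to 2.78 ± 0.650 CPM in knockouts, against 5.97 ± 0.884 CPM in siblings (-1.10 ± 0.26, adjusted p = 0.0122). At 34 hpf its value was -0.93 ± 0.30 (adjusted p = 0.0634). By edgeR 2 of the 9 genes thus rose and 0 fell at 34 hpf, beside 4.09% and 5.21% of all genes. At 48 hpf 1 rose and 1 fell, beside 4.76% and 5.28%. With the replicate block 3 of these 9 genes rose and 2 fell at 34 hpf, beside 1014 and 1419 of the 24084 genes tested. Those that fell were lgsn (-1.21 ± 0.28, adjusted p = 0.0173) and dnase1l1l (-0.64 ± 0.17, adjusted p = 0.0314). At 34 hpf DESeq2 called 3 higher and 2 lower, beside 1426 and 1554 of all genes. Limma-voom called 3 and 0, beside 881 and 1305. At 48 hpf DESeq2 called 1 higher and 1 lower, beside 1447 and 1688 of all genes. Limma-voom called 1 and 2, beside 1053 and 1483.

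Of 18 transcription factors of the lens and eye, 2 rose and 1 fell at 34 hpf, beside 4.09% of all genes higher and 5.21% lower, and 0 rose and 4 fell at 48 hpf, beside 4.76% and 5.28%. With the replicate block mafa was also lower at 48 hpf (adjusted p = 0.0391). At 34 hpf sox1b (0.33 ± 0.09, adjusted p = 0.0253) and sox2 (0.23 ± 0.07, adjusted p = 0.0489, and 0.0663 with the replicate block) were higher in knockouts. The eye gene six7 was lower at both stages (-1.96 ± 0.32, adjusted p = 0.00087, and -1.18 ± 0.21, adjusted p = 0.00143). At 48 hpf pax6b, a master regulator of eye development, fell (-0.41 ± 0.07, adjusted p = 0.0018), as did tfap2a (-0.41 ± 0.08, adjusted p = 0.00285). The gene prox1a, which drives fibre differentiation and crystallin expression in vertebrates, fell to 65.7 ± 6.42 CPM in knockouts at 48 hpf, against 95.4 ± 3.48 CPM in siblings (-0.54 ± 0.09, adjusted p = 0.00095). At 34 hpf it had 49.1 ± 4.58 CPM in knockouts and 43.3 ± 3.73 CPM in siblings (0.18 ± 0.09, adjusted p = 0.236). The difference between the stages passed the test (-0.72 ± 0.13, adjusted p = 0.0228).

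Genes of the neighbouring retina were called too. Of 19 tested retinal genes 4 fell and 0 rose at 34 hpf, beside 5.21% and 4.09% of all genes. At 48 hpf 8 fell and 3 rose, beside 5.28% and 4.76%, and the medians were -0.29 at 34 hpf and -0.87 at 48 hpf. With the replicate block gnat1 was no longer called lower at 48 hpf (adjusted p = 0.0930) and rho was (0.0394). The photoreceptor regulators crx (-1.13 ± 0.29 at 34 hpf and -1.47 ± 0.25 at 48 hpf) and otx5 (-1.07 ± 0.21 and -1.32 ± 0.18) were called lower at both stages. The summed retinal list was 273 to 315 CPM in knockouts and 269 to 316 CPM in siblings at 34 hpf, and 396 to 489.8 CPM in knockouts and 562 to 637 CPM in siblings at 48 hpf. Of its markers, rho, the rod opsin, had 0 counts in knockouts at 34 hpf and at most 0.109 CPM in any sibling library. It was thus near the limit of detection in both genotypes at that stage. The part of the retinal genes in the crystallin values was not tested. Of 11 pigment genes 0 were called at 34 hpf by edgeR, 1 rose by DESeq2 and 0 were called by limma-voom. At an unadjusted p below 0.05, 1 was higher and 2 lower at that stage, beside 11.7% and 11.6% of all genes. With the replicate block slc45a2, a melanosome transporter, was called higher at 34 hpf (adjusted p = 0.00846) and mitfa, a regulator of melanocytes, at 48 hpf (adjusted p = 0.0397). The melanosome gene pmelb was the 1 pigment gene called at 48 hpf without the block, and it fell (-0.59 ± 0.11, adjusted p = 0.00186). Of 12 skeletal muscle genes 2 fell at 34 hpf, acta1a (-0.60 ± 0.13) and acta1b (-0.74 ± 0.12), while at 48 hpf acta1b fell (-1.14 ± 0.12) and desma rose (0.56 ± 0.16), beside the same shares of all genes. The summed muscle list was 29781 to 51087 CPM in knockouts and 31716 to 35733 CPM in siblings at 34 hpf, and 39765 to 43829.6 CPM in knockouts and 41782 to 46779 CPM in siblings at 48 hpf.

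Relatives of the crystallins by name or family gave few calls. Of 7 tested genes that carry a crystallin name outside the families above, such as the mu crystallin crym and the zeta crystallin cryz, 0 were called at either stage by edgeR, DESeq2 and limma-voom. At an unadjusted p below 0.05, 2 were lower at 34 hpf and 0 at 48 hpf, beside 11.6% and 12.0% of all genes. Of 9 small heat shock proteins, the family of the alpha crystallins, hspb2 (-0.88 ± 0.16, adjusted p = 0.00226) and hspb6 (-1.28 ± 0.38, adjusted p = 0.0443) fell at 34 hpf, beside 5.21% of all genes. At 48 hpf 0 changed by edgeR, DESeq2 and limma-voom, and 1 was lower at an unadjusted p below 0.05, beside 12.0% of all genes.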

How the data were processed

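Whole-embryo total RNA was isolated with TRIzol and made into libraries with the VAHTS Universal V8 kit, per the labels' protocols. The values deposited by the authors are raw counts for each gene symbol. The submitters' processing notes name genome build GRCz11 and the tools STAR 2.7.10b and featureCounts 2.0.6, after quality control and trimming with FastQC 0.12.1 and Trim Galore 0.6.10. Treatment of reads with several alignments is not given in the sources used here, so near-identical crystallin copies could lose or share reads. Of the counts from 1 to 20, 70.72% were even, so a count may not stand for 1 fragment.

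All 16 libraries entered 1 edgeR 4.0.16 model of 4 groups in R 4.3.3 (filterByExpr, TMM, glmQLFTest), with Benjamini-Hochberg adjustment over 24084 genes and a threshold of 0.05. For groups with 0 counts, folds use a minimum of 3 counts per group as the lower bound, which covers counting error only. The steps were tested on simulated data. Alternatives were DESeq2 1.42.0, limma 3.58.1 (voom), other scalings and filters, a replicate block and leaving out each library. Same-numbered knockout and sibling libraries of a stage correlated in their deviations from the group means (0.155 to 0.430). The sibling of the same number correlated best with knockout replicates 3 and 4 at 34 hpf and 1 and 4 at 48 hpf. For the other knockout libraries a sibling of another number correlated better. Across stages the same-numbered libraries of a genotype gave -0.212 to 0.297. The number was used as a pairing in the block, and whether it marks pairs is uncertain. Replicates differed by at least 7.80 times the counting noise.

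The genes and lists were chosen with earlier results of these data known. Genes with values in every library were the 2 with the highest mean CPM of each class, those called in a knockout comparison, and the 3 with the smallest p in each comparison of genotypes and in their difference. The gene crybb2 was added after its values were seen.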

Additional observations from a re-analysis of the deposited data

Results flagged for a closer look

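In 136 groups of 4 libraries, 12 held a library that stood apart from the other 3 by Dixon's 95% criterion, which chance meets in about 1 group of 20. Most were the same pair of libraries. In knockouts at 34 hpf, replicate 4 stood high for crybb1l2 (421 CPM, others 185 to 219.9), crygm2d15 (5.28 CPM, others 1.31 to 1.71) and crygm2d8 (139 CPM, others 57.4 to 70.6). In knockouts at 48 hpf, replicate 2 stood high for cryba1l1 (362 CPM, others 305 to 313), crybb1l1 (1199 CPM, others 903 to 946) and crygm2d5 (97.6 CPM, others 72.1 to 74.5). The same library stood high in the summed beta A (1645 CPM, others 1271 to 1318), beta B (2334 CPM, others 1780 to 1837) and all crystallins (7595 CPM, others 5648 to 5972). In siblings at 48 hpf, replicate 2 stood high for cryba1l2 (25.5 CPM, others 23.4 to 23.7) and the summed beta A crystallins (1636 CPM, others 1503 to 1523), and replicate 1 was the only one with a count for crygs4 (0.0259 CPM).

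Outside the crystallins, some eye genes had a knockout effect that differed between 48 and 34 hpf in edgeR's test of the difference. Of 19 tested retinal genes 1 had a positive and 2 a negative difference, beside 0.0872% and 0.116% of all genes. Of 18 lens and eye transcription factors 0 had a positive and 1 a negative difference. The 3 flagged for a closer look were atoh7, prox1a and rx3. The log2 difference was 2.42 for the retinal regulator atoh7 (adjusted p = 0.000918), whose effect was 0.73 at 48 hpf and -1.68 at 34 hpf. It was -0.72 for the lens regulator prox1a (adjusted p = 0.0228) and -1.44 for the eye field gene rx3 (adjusted p = 0.0457, and 0.0723 with the replicate block).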

How the results depend on the processing

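The 13 gene calls named above kept their negative direction under every alternative run. When 1 library was left out, only the calls of crygm2d4 and crygmxl1 at 34 hpf passed the threshold in all 8 fits. Each of the other calls was lost in 3 to 7 of its 8 fits. The counts of crystallins called between stages stayed within 1.5 times the values given, and those called higher in knockouts stayed at 0. Each class sum moved by less than its SD with raw library totals. Leaving out 1 library of a group (chosen after seeing the data) cannot move its mean by as much as the SD. That comparison was therefore no check of the sums. The gamma M2d ratio ran from 0.535 to 0.752 at 34 hpf and from 0.611 to 0.698 at 48 hpf when 1 library was left out. The number called lower in knockouts varied more. At 34 hpf it was 8, against 1 with only the libraries compared and 18 with the replicate block, and from 2 to 21 when 1 library was left out. At 48 hpf it was 5, against 3 with a robust dispersion prior, 20 with only the libraries compared, 8 with counts divided by 2 and rounded up (chosen after seeing the data), 8 with DESeq2, 12 with limma-voom and 17 with the replicate block, and from 0 to 8 when 1 library was left out. The number of all genes called lower also moved. With only the libraries compared it was 739 at 34 hpf, against 1255, and 1639 at 48 hpf, against 1271. At 48 hpf it was 1261 with the robust prior and 1335 with counts divided by 2. The cause was not tested. For the stage comparisons the replicate block gave 35 calls in knockouts and 36 in siblings, and same-numbered libraries of different stages share only a number. In the difference between stages the block gave 0 calls in either direction. The median of all genes moved by less than 0.1 on the log2 scale under each scaling. Depth limits the gamma S genes, crygm2f and crygm2d11 at 34 hpf.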
